A study of Mus musculus with 7 samples.

Results

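The 38 genes described here encode nuclear subunits of respiratory complexes II, III, IV and V together with the soluble electron carrier cytochrome c. They were taken from a table of 35641 genes as the rows whose gene name is on a fixed list of subunit names, and all 38 were found. By complex they divide into 4 genes of complex II, 9 of complex III, 1 for cytochrome c, 10 of complex IV and 14 of complex V. The cells, neutrophils by their labels, were isolated by flow cytometry from the lungs of female C57BL6 mice, on CD45, CD11b and Ly6G with low Ly6C. The labels name 2 groups, HF (4 mice) and LF (3 mice), without spelling the names out, and the study's title speaks of obesity. Age, diet composition and time on diet are not given by the sources used. A SMART-Seq kit, which copies and amplifies small amounts of RNA, was used for the libraries. The table's columns are HF1 to HF4 and LF6 to LF8, and these names are used below.

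The respiratory chain sits in the inner mitochondrial membrane. Complex II (succinate dehydrogenase) passes electrons from succinate to ubiquinone and is also an enzyme of the tricarboxylic acid (TCA) cycle. Complex III passes them from ubiquinone to cytochrome c, and complex IV (cytochrome c oxidase) from cytochrome c to oxygen. Complex V (ATP synthase) uses the proton gradient to make ATP. Subunits of complex II all come from nuclear genes, whereas complexes III, IV and V also hold subunits made from the mitochondrial genome. Mature neutrophils are known for few mitochondria and for drawing ATP mainly from glycolysis, while monocytes and macrophages respire more.

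The libraries labelled LF went against the sort. Ly6g, the gene of the Ly6G protein, stood at 4431, 1301, 2378 and 4944 normalized counts in HF1 to HF4, and at 0.749, 0 and 8.22 in LF6, LF7 and LF8. Summed over 12 neutrophil markers the level ranged from 421820 to 569424 in HF, against 8129 to 8702 in the libraries labelled LF, and all 12 had at least 1 read in each group. Over 12 monocyte and interstitial macrophage markers it ranged from 23102 to 31404 in HF, against 143194 to 154337 in those labelled LF, and for Ccr2 alone the means were 909 and 21847. S100a8, an abundant neutrophil gene, averaged 41606 and 69.4, and Ly6c2, a gene of the Ly6C antigen, averaged 4193 and 13682. Over 10 markers of dendritic cells and MHC class II it ranged from 12480 to 30900 and from 72398 to 88522. Summed platelet, erythroid, eosinophil, and basophil and mast cell markers were higher in every HF library than in every library labelled LF, while sums for alveolar macrophage, T, NK, B, epithelial and endothelial markers overlapped. Taken singly, all 6 basophil and mast cell markers overlapped between the groups, and Kit stood at 285, 0, 4.48 and 543 in HF1 to HF4. Siglecf is on both the eosinophil and the alveolar macrophage list. Every difference below is therefore one between the HF libraries and "the libraries labelled LF", and group and cell type cannot be told apart. In sorted bulk RNA, fewer cells of a type and less RNA per cell cannot be told apart either. Reads assigned to genes ranged from 13943173 to 18983351 per library.

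Most subunit genes were lower in HF. Of the 38, 24 were lower and 4 were higher (limma, Benjamini-Hochberg adjusted p under 0.05 over 14936 tested genes), and 10 did not pass. Over all tested genes 28.7% were called lower and 26.2% higher. All 38 passed the filter of a mean of at least 10 normalized counts, the lowest single value being 59.1. The median log2 difference (HF minus LF, on log2 of the normalized count plus 1) was -0.53, against -0.16 for all tested genes. A fall of at least 1 on that scale was called for 11 members and for 22.3% of all tested genes. HF and LF values did not overlap for 31 members, against 62.2% of all tested genes. In the authors' deposited table, 4 members were higher and 23 lower at the same threshold.

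**Figure D1:**
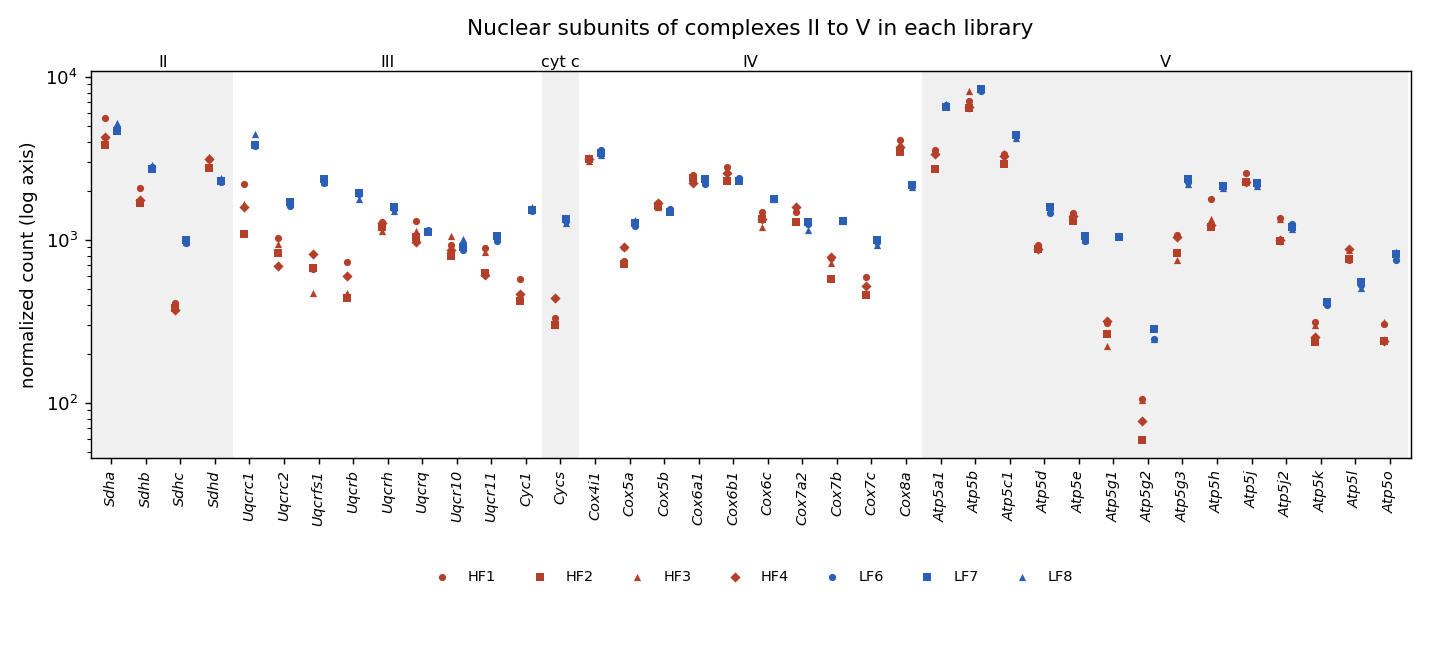
Normalized count (log axis) of each subunit gene in the 4 HF libraries (red) and the 3 libraries labelled LF (blue), with 1 symbol per library and shading by complex. Cycs, Cyc1, Uqcrfs1 and Atp5g1 show wide gaps with HF below, Cox8a and Atp5l have HF above, and HF points scatter more than LF points in most genes.

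Library scaling matters for the small differences. HF libraries carry larger normalized totals, and setting all totals equal moved the median of all tested genes by -0.51, so that 33 members were lower and 1 higher, and over all tested genes 6295 were lower and 2696 higher. Quantile normalization gave 28 lower and 3 higher, and over all tested genes 4003 lower and 3976 higher. Of the 24 lower members, 23 were lower under all 3 scalings, the exception being Atp5k, and of the 4 higher members only Cox8a was higher under all 3. As a share of all reads of a library, the 38 genes together took 0.359%, 0.304%, 0.330% and 0.303% in HF1 to HF4 and 0.602%, 0.625% and 0.614% in LF6, LF7 and LF8. The mean share was 0.324 ± 0.027% in HF (SD, n = 4), against 0.614 ± 0.011% in those labelled LF (SD, n = 3), with no overlap.

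**Figure D2:**
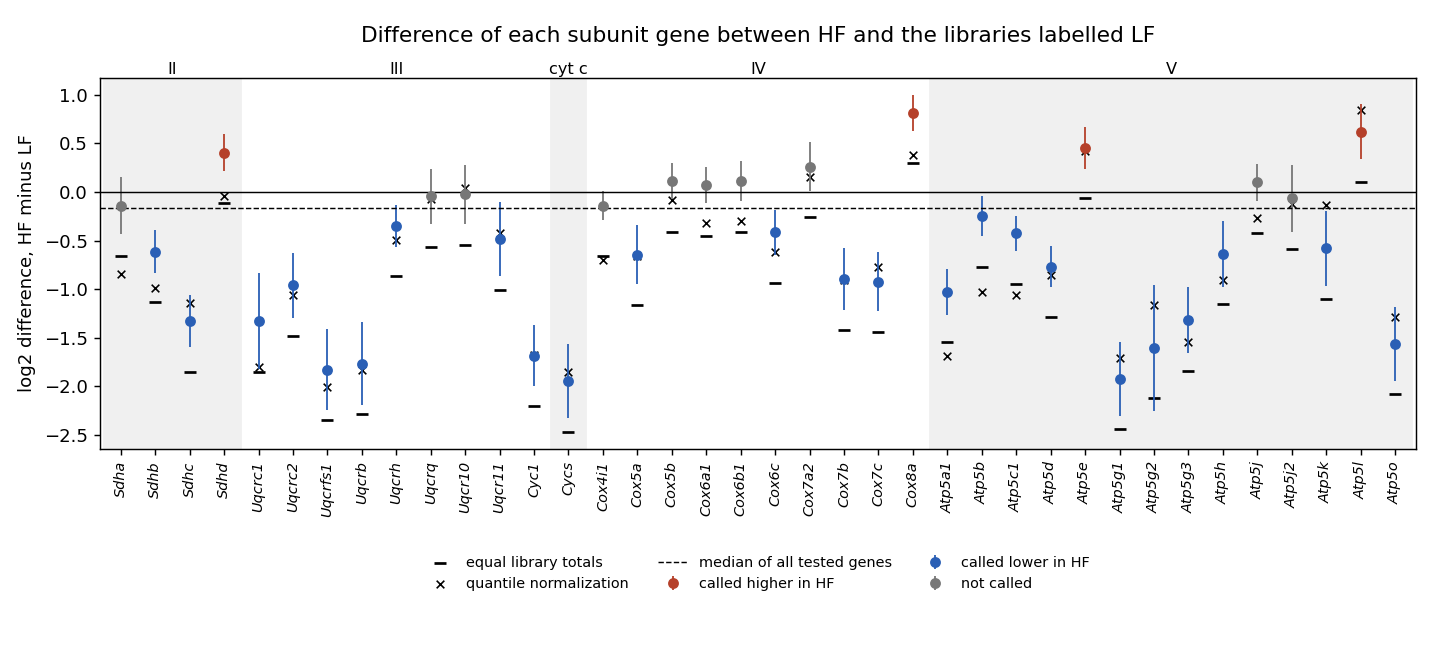
Log2 difference (HF minus LF) of each subunit gene with its 95% interval from limma, beside the value with equal library totals (dash) and after quantile normalization (cross). The dashed line at -0.16 is the median of all tested genes; complex III lies wholly below 0 on the authors' scaling, and with equal totals only Cox8a and Atp5l stay above 0.

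The median log2 difference was -0.96 over the 9 genes of complex III, -0.61 over the 14 of complex V, -0.38 over the 4 of complex II and -0.03 over the 10 of complex IV. For each complex the share of reads was lower in every HF library than in every library labelled LF. For complex III it was 0.044 ± 0.006% in HF (SD, n = 4), against 0.124 ± 0.004% in those labelled LF (SD, n = 3). For complex IV it was 0.099 ± 0.005% and 0.141 ± 0.003%. These medians describe the members and carry no test between complexes.

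**Figure D3:**
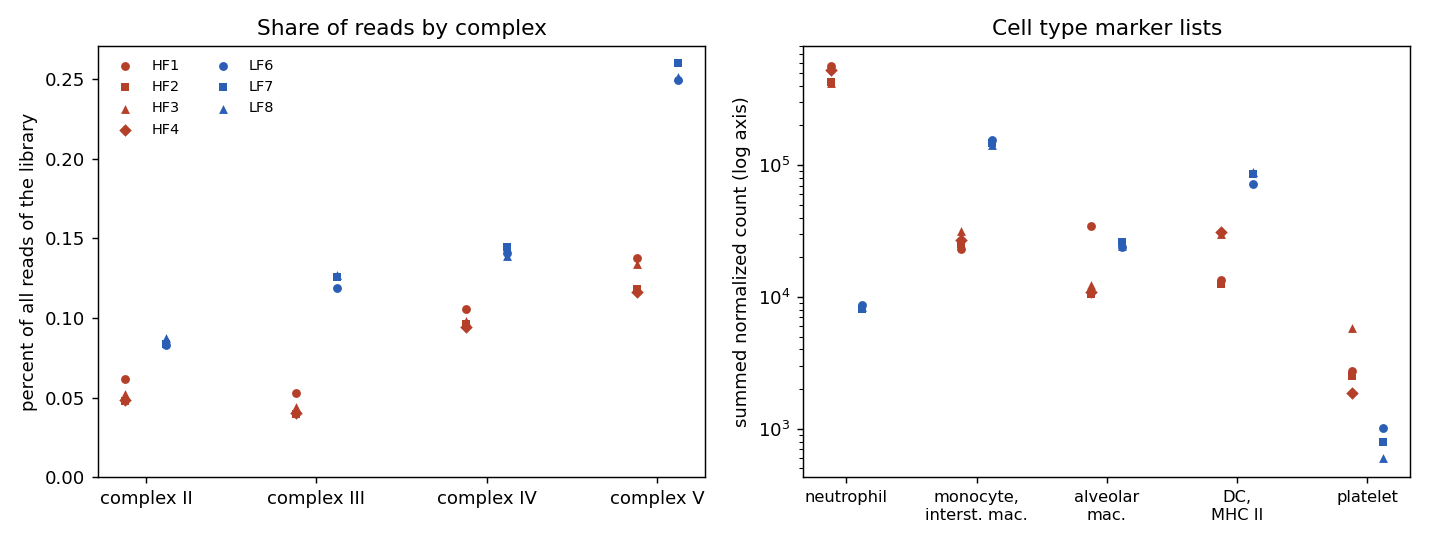
Left, percent of all reads of a library taken by the genes of each complex, per library. Right, summed normalized counts (log axis) of 5 cell type marker lists in the same libraries: neutrophil markers are high in HF, monocyte and MHC class II markers are high in those labelled LF, and HF1 stands above the other HF libraries in the alveolar macrophage sum, most of which is Chil3 there.

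Among the HF libraries, HF1 had the highest value of 24 of the 38 members and HF2 the lowest of 21. HF1 also had the highest sum of alveolar macrophage markers, at 34448 against 10525 to 12332 in HF2 to HF4, of which Chil3 alone made up 30151 against 6508 to 9035. Siglecf, Ear2, Abcg1 and Mertk of that list were not highest in HF1. Plet1 (435 against 16.8 to 84.7), Krt79 (193 against 0 to 46.2) and Fabp1 (112 against 30.9 to 56.4) of that list were highest there, at lower levels. Of the neutrophil markers, HF1 was highest in the granule genes Ngp (67282 against 19659 to 26685), Camp (17783 against 5131 to 6465) and Ltf (64164 against 12474 to 20498). All other markers of the neutrophil list were highest in HF4, among them Lcn2 (28817, against 28265 in HF1), Mmp8 (42217 against 40403) and Mmp9 (69301 against 64940). The part of these in the member values was not tested. Without HF1 the counts were again 24 lower and 4 higher. The spread was wider in HF: the median coefficient of variation of the members was 11.9% in HF, against 3.14% in those labelled LF, and it was larger in HF for 36 of 38. Over all tested genes these medians were 34.0% and 11.6%.

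Promoter sequence was examined because the subunit genes are a textbook set for shared promoter elements, chiefly those bound by the nuclear respiratory factors NRF1 and NRF-2 (the ETS factor GABP). RefSeq promoter windows on GRCm38.p6 (250 bases before to 50 bases after an annotated start) matched 30 of the 38 members. Exact matches were counted on both strands, for CCGGAAG (ETS core), GCGCATGCG (NRF1), AAGATGGCG (YY1) and CCAAT, and no motif contains another. The ETS core was found in 12 of 30 members (40%), in 20.1% of 10175 tested genes with a window and in 9.93% of all 27025 genes with one. The NRF1 letters were found in 7 of 30 (23.3%), in 3.99% of tested genes and in 1.95% of all genes. CCAAT was found in 17 of 30 (56.7%), in 42.7% of tested genes and in 41.1% of all genes, and the YY1 letters in 2 of 30 (6.67%), in 3.53% of tested genes and in 1.64% of all genes.

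Set beside the calls, the ETS core was present in all 4 members called higher (Sdhd, Cox8a, Atp5e and Atp5l), in 5 of 18 called lower and in 3 of 8 not called. The lower members with it were Sdhb, Uqcrh, Uqcr11, Atp5h and Atp5k. Among all tested genes the ETS core was found in 17.2% of those called higher and 22.5% of those called lower. This split of the members was made after their values were seen and is a description of few genes. The split also depends on scaling. With equal totals Cox8a was still called higher, while Sdhd, Atp5e and Atp5l were not called. The NRF1 letters were present in 1 of the 4 higher members, Atp5l, and in 5 of the 18 lower ones. Printed below are the 4 higher members and, as examples, 2 strongly lower members with the NRF1 letters, Cycs and Atp5g2. The lower members with the ETS core are not printed. Each is a stretch from 220 bases before the annotated start through the first 10 bases from it, on the gene's strand, all 6 genes lying on the minus strand. In GRCm38.p6 they are chr9:50603840-50604069 for Sdhd, chr19:7217607-7217836 for Cox8a, chr2:174464092-174464321 for Atp5e, chr9:44920733-44920962 for Atp5l, chr6:50566560-50566789 for Cycs and chr15:102671038-102671267 for Atp5g2. Capitals mark the ETS core, read here on the opposite strand, in the first 4 and the NRF1 letters in the last 2.
Sdhd: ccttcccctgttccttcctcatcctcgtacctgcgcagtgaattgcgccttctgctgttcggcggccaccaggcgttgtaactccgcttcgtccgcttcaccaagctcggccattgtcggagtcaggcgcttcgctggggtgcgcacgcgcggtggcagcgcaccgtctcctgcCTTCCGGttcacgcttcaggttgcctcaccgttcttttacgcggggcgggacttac
Cox8a: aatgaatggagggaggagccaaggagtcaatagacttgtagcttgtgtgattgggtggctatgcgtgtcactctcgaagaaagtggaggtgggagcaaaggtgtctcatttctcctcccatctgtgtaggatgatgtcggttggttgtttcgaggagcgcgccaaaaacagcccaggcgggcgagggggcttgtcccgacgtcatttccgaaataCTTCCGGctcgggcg
Atp5e: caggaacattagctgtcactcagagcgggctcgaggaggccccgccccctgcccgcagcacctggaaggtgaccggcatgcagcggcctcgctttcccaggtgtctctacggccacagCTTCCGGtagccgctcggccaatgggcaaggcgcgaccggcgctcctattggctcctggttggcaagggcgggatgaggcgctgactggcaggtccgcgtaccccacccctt
Atp5l: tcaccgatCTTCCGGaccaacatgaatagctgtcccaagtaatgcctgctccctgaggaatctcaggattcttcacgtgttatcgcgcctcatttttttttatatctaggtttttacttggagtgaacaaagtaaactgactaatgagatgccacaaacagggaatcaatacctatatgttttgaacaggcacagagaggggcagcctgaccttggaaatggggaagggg
Cycs: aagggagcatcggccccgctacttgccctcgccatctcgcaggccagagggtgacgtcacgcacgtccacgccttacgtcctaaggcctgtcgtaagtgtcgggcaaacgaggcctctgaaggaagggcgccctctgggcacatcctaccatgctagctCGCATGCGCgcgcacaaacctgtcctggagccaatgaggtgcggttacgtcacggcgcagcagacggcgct
Atp5g2: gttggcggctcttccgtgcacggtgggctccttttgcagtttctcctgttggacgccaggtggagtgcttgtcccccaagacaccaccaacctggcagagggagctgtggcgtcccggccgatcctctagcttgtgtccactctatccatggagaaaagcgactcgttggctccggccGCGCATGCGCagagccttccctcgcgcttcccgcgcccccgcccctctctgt
The ETS core began 46 bases before the start in Sdhd, 5 before it in Cox8a, 102 before it in Atp5e and 212 before it in Atp5l. Cox8a and Atp5l each held a further match after the start, outside the stretch shown. The NRF1 letters began 61 bases before the start in Cycs. In Atp5g2 matches on both strands overlap, beginning 42 and 41 bases before the start.

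Complex II split within itself. Sdha, the flavoprotein that oxidizes succinate, stood at 5599, 3797, 4328 and 4268 normalized counts in HF1 to HF4 and at 4865, 4681 and 5183 in LF6 to LF8. The groups overlapped, with HF1 above every library labelled LF, and the difference of -0.14 ± 0.13 (SE) did not pass (limma adjusted p = 0.38). Sdha was lower with equal totals (-0.66) and after quantile normalization (-0.84), and also without HF1 (-0.25, limma adjusted p = 0.038). Sdhb, the iron-sulfur subunit, stood at 2092, 1692, 1783 and 1746 in HF, against 2781, 2725 and 2862 in those labelled LF. All HF values lay below, a log2 difference of -0.61 ± 0.10 (SE; limma adjusted p = 0.00096).

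The membrane anchors of complex II, Sdhc and Sdhd, which hold the ubiquinone site together, moved in opposite directions on the authors' scaling and with edgeR's TMM, but not with equal totals or after quantile normalization. Sdhc stood at 407, 382, 386 and 371 in HF, against 955, 996 and 965 in those labelled LF. This was 39.7% of the LF mean, with a difference of -1.33 ± 0.12 (SE; limma adjusted p = 3.8e-05). Sdhd stood at 3125, 2768, 3218 and 3144 in HF, against 2261, 2291 and 2390 in those labelled LF. All HF values lay above, with a difference of 0.40 ± 0.08 (SE; limma adjusted p = 0.0038). With equal totals that of Sdhd was -0.12 and after quantile normalization -0.04, neither past the threshold. A ratio within a library is untouched by any single scaling factor per library, though not by quantile normalization. Sdhd over Sdhc was 7.68, 7.25, 8.34 and 8.48 in HF, against 2.37, 2.30 and 2.48 in those labelled LF. The HF mean of that ratio was 3.33 times the LF mean, as a description of a pair chosen after its values were seen.

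Complex III had 7 of 9 genes lower, with the other 2, Uqcrq and Uqcr10, not past the threshold; with equal totals all 9 were lower. The electron carriers of the complex were among the lowest. Uqcrfs1, the Rieske iron-sulfur protein, stood at 662, 669, 472 and 824 in HF, against 2240, 2367 and 2255 in those labelled LF. It had the largest fall of the complex, to 28.7% of the LF mean (log2 difference -1.83 ± 0.18 SE; limma adjusted p = 7.3e-05). Cyc1, cytochrome c1, stood at 575, 424, 459 and 464 in HF, against 1498, 1516 and 1591 in those labelled LF, with no HF value above 575 (difference -1.68 ± 0.13 SE; limma adjusted p = 2.3e-05). Cytochrome b, the remaining redox subunit, is made from the mitochondrial genome, and mt-Cytb averaged 9659 and 12459 without passing the test (-0.94 with equal totals and -1.34 after quantile normalization, both past the threshold).

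The core proteins Uqcrc1 and Uqcrc2, which frame the complex on its matrix side, fell to 40.9% and 51.8% of their LF means. Uqcrc1 was uneven in HF, at 2202, 1085, 1669 and 1597 against 3757, 3816 and 4435, with HF1 highest and HF2 lowest and no overlap. The small supernumerary subunits were split. Uqcrb stood at 735, 440, 474 and 602 in HF, against 1907, 1946 and 1778 in those labelled LF, a difference of -1.76 ± 0.19 (SE; limma adjusted p = 0.00011). Uqcrh and Uqcr11 fell by less, with differences of -0.35 and -0.48 (limma adjusted p = 0.015 and 0.038). The call of Uqcrh was lost without LF6 or LF7 (limma adjusted p = 0.059 and 0.073). That of Uqcr11 was lost without HF2, HF4, LF6, LF7 or LF8 (up to 0.117), with no filter (0.082) and with no trend (0.069).

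Uqcr10, which had the highest difference in complex III, stood at 933, 795, 1052 and 872 in HF, against 861, 907 and 1008 in those labelled LF. The groups overlapped, the difference being -0.02 with a 95% interval of -0.33 to 0.28, and -0.54 with equal totals (limma adjusted p = 0.0078). Uqcrq stood at 1307, 1048, 1140 and 976 in HF, against 1157, 1123 and 1154 in those labelled LF. These also overlapped, with an interval of -0.33 to 0.24, and equal totals gave -0.56 (limma adjusted p = 0.0071). Uqcrq over Uqcrb averaged 2.05 ± 0.41 in HF (SD, n = 4), against 0.611 ± 0.036 in those labelled LF (SD, n = 3).

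Cycs, the somatic cytochrome c that shuttles electrons between complexes III and IV, had the largest fall of all 38. It stood at 330, 302, 302 and 440 in HF, against 1302, 1348 and 1277 in those labelled LF. The highest HF value, in HF4, was far below the lowest LF value, and the HF mean was 26.2% of the LF mean (log2 difference -1.95 ± 0.16 SE; limma adjusted p = 3.1e-05).

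Complex IV had the median nearest to 0 on the authors' scaling, with 4 of its 10 genes lower, 1 higher and 5 not past the threshold; with equal totals 8 were lower and 1 higher. All 10 are subunits around a catalytic core that the mitochondrial genome encodes. Cox8a, a small membrane subunit, was the higher gene and rose the most of all 38 on the authors' scaling. After quantile normalization Atp5l rose more, at 0.85 against 0.38. Cox8a stood at 4088, 3466, 3866 and 3701 in HF, against 2138, 2184 and 2116 in those labelled LF. The HF mean was 1.76 times the LF mean, with a log2 difference of 0.81 ± 0.08 (SE; limma adjusted p = 7.3e-05), and 0.29 and 0.38 with equal totals and after quantile normalization, both past the threshold.

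The lower genes were Cox7c, Cox7b, Cox5a and Cox6c. Cox7c stood at 595, 460, 474 and 523 in HF, against 972, 998 and 935 in those labelled LF. On the authors' scaling it had the largest fall in complex IV, -0.92 ± 0.13 (SE, limma adjusted p = 0.00062). After quantile normalization Cox7b fell more, at -0.90 against -0.77. Cox7b averaged 712 ± 97.9 in HF (SD, n = 4), against 1315 ± 7.04 in those labelled LF (SD, n = 3). Cox5a, which binds next to the matrix face of the core, and Cox6c had differences of -0.65 and -0.41. Cox8a over Cox7c was 6.87, 7.53, 8.15 and 7.07 in HF, against 2.20, 2.19 and 2.26 in those labelled LF, and its HF mean was 3.34 times the LF mean.

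The 5 genes that did not pass were Cox4i1, Cox5b, Cox6a1, Cox6b1 and Cox7a2. Cox4i1, the ubiquitous form of the largest nuclear subunit, was the steadiest in HF, at 3125, 3156, 3064 and 3144 against 3560, 3429 and 3334. All HF values lay below, yet the difference was -0.14 with an interval of -0.29 to 0.01 (limma adjusted p = 0.10). It was -0.66 with equal totals and -0.70 after quantile normalization, both past the threshold. Cox5b stood at 1681, 1607, 1594 and 1680 in HF, against 1539, 1477 and 1534 in those labelled LF, all HF values above. Its difference was 0.11 (interval -0.08 to 0.30), but -0.41 with equal totals (limma adjusted p = 0.0030) and -0.08 after quantile normalization.

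Cox6a1 stood at 2496, 2381, 2454 and 2228 in HF, against 2205, 2368 and 2254 in those labelled LF. Cox6b1, which faces the intermembrane space, stood at 2806, 2312, 2440 and 2558 in HF, against 2413, 2290 and 2315 in those labelled LF. Both overlapped, with differences of 0.07 (interval -0.11 to 0.25) and 0.11 (interval -0.10 to 0.32). With equal totals Cox6a1 and Cox6b1 were lower, at -0.45 and -0.41 (limma adjusted p = 0.0033 and 0.0043), and after quantile normalization at -0.31 and -0.29 (0.013 and 0.015). Cox7a2 stood at 1484, 1292, 1542 and 1584 in HF, against 1246, 1286 and 1153 in those labelled LF. All HF values lay above, by 0.26 with an interval of 0.01 to 0.51 (limma adjusted p = 0.070). It passed without HF2 (0.021) and with DESeq2 (adjusted p = 0.032), and the difference was -0.26 with equal totals.

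In complex V, 10 of 14 genes were lower, 2 were higher and 2 did not pass, while with equal totals 12 were lower. The F1 head, which carries the catalytic sites, is built from the products of Atp5a1 (alpha), Atp5b (beta), Atp5c1 (gamma), Atp5d (delta) and Atp5e (epsilon). Atp5a1 stood at 3561, 2740, 3581 and 3348 in HF, against 6732, 6506 and 6851 in those labelled LF, a difference of -1.03 ± 0.10 (SE; limma adjusted p = 8.3e-05). Its partner Atp5b, present in the complex in equal number, stood at 7130, 6440, 8148 and 6528 in HF, against 8140, 8458 and 8458 in those labelled LF. HF3 lay just above LF6, so the groups overlapped, and the difference was -0.25 ± 0.09 (SE; limma adjusted p = 0.044). Leaving out any 1 of HF1, HF2, HF4, LF6, LF7 or LF8 ended that call (up to 0.124), as did edgeR on the recovered reads with the authors' size factors (0.061), no filter (0.090) and no trend (0.167). Atp5b over Atp5a1 was 2.14 ± 0.20 in HF (SD, n = 4), against 1.25 ± 0.05 in those labelled LF (SD, n = 3), with no overlap.

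Within the central stalk, Atp5d and Atp5e, whose products bind each other, went in opposite directions on the authors' scaling. Atp5d stood at 926, 881, 894 and 877 in HF, against 1465, 1582 and 1526 in those labelled LF, a difference of -0.77 ± 0.09 (SE; limma adjusted p = 0.00022). Atp5e stood at 1461, 1314, 1412 and 1392 in HF, against 990, 1062 and 993 in those labelled LF. All HF values lay above, by 0.46 ± 0.09 (SE; limma adjusted p = 0.0038), and by 0.43 after quantile normalization (0.0046), although equal totals gave -0.06 (limma adjusted p = 0.60). Atp5e over Atp5d had little spread, at 1.56 ± 0.05 in HF (SD, n = 4), against 0.666 ± 0.013 in those labelled LF (SD, n = 3). The gamma gene Atp5c1 fell to 74.6% of its LF mean.

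The c-ring, the rotor in the membrane, is encoded by Atp5g1, Atp5g2 and Atp5g3, whose precursors differ in their import sequence but give the same mature protein. All 3 fell. Atp5g1 stood at 310, 265, 222 and 318 in HF, against 1062, 1034 and 1051 in those labelled LF, a difference of -1.92 ± 0.16 (SE; limma adjusted p = 3.3e-05) and the largest fall in complex V. Atp5g2 stood at 106, 59.1, 104 and 77.0 in HF, against 245, 282 and 247 in those labelled LF, a difference of -1.60 ± 0.28 (SE; limma adjusted p = 0.0018). Atp5g3 stood at 1072, 829, 749 and 1044 in HF, against 2266, 2375 and 2198 in those labelled LF, a difference of -1.32 ± 0.15 (SE; limma adjusted p = 0.00014). No HF value of any of these genes reached the lowest LF value.

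The make-up of the c-ring reads shifted as well. Atp5g1 gave 20.8%, 23.0%, 20.6% and 22.1% of the c-ring reads in HF1 to HF4 and 29.7%, 28.0% and 30.1% in LF6 to LF8. Over the libraries of a group this was 21.6 ± 1.1% (SD, n = 4), against 29.3 ± 1.1% (SD, n = 3). Exact 95% binomial intervals, which cover counting error only, ran up to 25.9% in HF2 and down to 26.8% in LF7, the nearest pair. Atp5g3 gave 71.5 ± 1.3% and 63.5 ± 0.7%, and Atp5g2 gave 6.83 ± 2.11% and 7.19 ± 0.41%, the last with overlap. These shares are of reads and not corrected for transcript length, so they compare libraries and do not rank the 3 genes.

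**Figure D4:**
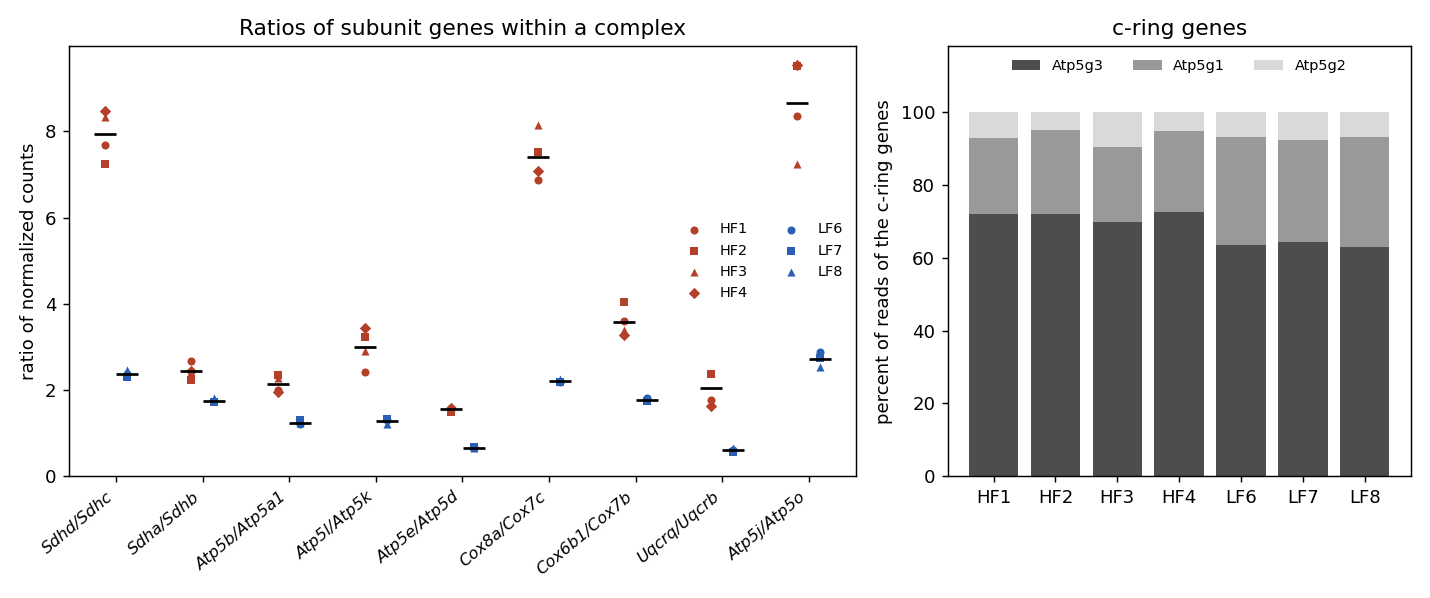
Left, ratios of normalized counts between pairs of subunit genes of the same complex in each library, which a single scaling factor per library leaves unchanged. Black bars are group means. HF lies above LF without overlap in all 9 pairs shown. The pairs were picked after their values were seen, and the choice of numerator sets the direction, so this is no test. Right, percent of the c-ring reads from Atp5g3, Atp5g1 and Atp5g2 per library, with Atp5g1 at 20.6% to 23.0% in HF, against 28.0% to 30.1% in those labelled LF.

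The peripheral stalk holds the head still against the rotor. Atp5o, the OSCP subunit that joins the stalk to F1, stood at 307, 239, 312 and 239 in HF, against 754, 815 and 841 in those labelled LF, a difference of -1.56 ± 0.16 (SE; limma adjusted p = 0.00011). Atp5h (subunit d) fell to 65.2% of its LF mean. Atp5j (coupling factor 6) stood at 2564, 2273, 2259 and 2274 in HF, against 2172, 2246 and 2127 in those labelled LF, with HF1 apart from the other HF libraries. Its difference was 0.10 (interval -0.09 to 0.29), and -0.42 and -0.26 with equal totals and after quantile normalization (limma adjusted p = 0.0044 and 0.030). Atp5j over Atp5o averaged 8.66 ± 1.09 in HF (SD, n = 4), against 2.72 ± 0.18 in those labelled LF (SD, n = 3). The exons of Atp5j overlap those of Gabpa on the opposite strand by 397 bases in GENCODE M21, and the sources used do not say if reads were counted by strand.

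The membrane subunits e, f and g, encoded by Atp5k, Atp5j2 and Atp5l, take part in joining ATP synthases into dimers. Atp5l stood at 757, 762, 868 and 874 in HF, against 529, 553 and 505 in those labelled LF. All HF values lay above, by 0.62 ± 0.12 (SE; limma adjusted p = 0.0030), by 0.85 after quantile normalization (0.00039) and by 0.10 with equal totals (limma adjusted p = 0.48). Atp5k stood at 312, 237, 299 and 254 in HF, against 401, 414 and 414 in those labelled LF, a difference of -0.58 ± 0.17 (SE; limma adjusted p = 0.019). Quantile normalization ended the call of Atp5k (-0.13, limma adjusted p = 0.52), as did leaving out LF6, LF7 or LF8 (0.065 to 0.075). Atp5j2 stood at 1358, 981, 1335 and 1001 in HF, against 1256, 1208 and 1161 in those labelled LF. HF1 and HF3 lay above and HF2 and HF4 below every LF value, with a difference of -0.06 (interval -0.41 to 0.28) and -0.58 with equal totals (limma adjusted p = 0.012). Atp5l over Atp5k averaged 3.00 ± 0.44 in HF (SD, n = 4), against 1.29 ± 0.06 in those labelled LF (SD, n = 3).

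Across the 38 members, shorter coding sequences went with higher differences. Spearman's rho between coding length (GENCODE M21) and log2 difference was -0.41 over the members, which share the same libraries, and 0.01 over 12022 tested genes with a coding length. The 4 higher members have coding lengths of 477 (Sdhd), 207 (Cox8a), 156 (Atp5e) and 309 (Atp5l) bases. Short genes were not all higher: Cox7c, at 189 bases, and Cycs, at 315, both fell.

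Other genes of respiration, from lists fixed for this description, were read against the same background. On the authors' scaling 28.7% of all tested genes were called lower and 26.2% higher. Of the 14936 tested, 6295 were lower and 2696 higher with equal totals, and 4003 and 3976 after quantile normalization. Of 15 further or tissue-restricted subunits 8 passed the filter; 3 of these were lower and 5 did not pass the test, while 7 were lower with equal totals and 4 after quantile normalization. The complex IV protein gene Ndufa4 averaged 930 ± 134 in HF (SD, n = 4), against 1706 ± 85.1 in those labelled LF (SD, n = 3). Atp5mpl had a difference of -0.68, and Atp5f1, the peripheral stalk subunit b, averaged 4232 and 3945 without passing (-0.42 with equal totals and -0.53 after quantile normalization, both past the threshold). The isoform genes Cox4i2, Cox6a2, Cox7a1, Cox7b2, Cox8b, Cox8c and Cyct, known from lung, muscle or testis, were all under the filter, with no value above 23.1. Cox6b2, a further isoform gene of the list, passed the filter at a low level and was called lower. It averaged 21.2 in HF and 93.6 in those labelled LF (-2.42, limma adjusted p = 0.015).

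Genes of assembly factors, which help build the complexes, ranged more widely. Of 35 tested, 14 were lower, 5 were higher and 16 did not pass, with a median of -0.55 and a range from -5.02 to 2.23. With equal totals 23 were lower and 3 higher, and after quantile normalization 14 and 7. Cox17, the copper chaperone of complex IV, stood at 828, 847, 878 and 883 in HF, against 166, 193 and 190 in those labelled LF, a difference of 2.23 ± 0.13 (SE; limma adjusted p = 4.6e-06). Pet100, another complex IV assembly gene, had a difference of 1.5, and Coa5 averaged 2707 and 2634 (0.02, and -0.50 with equal totals). Cox17 and Pet100 were also higher with equal totals (1.71 and 0.98) and after quantile normalization (2.57 and 1.67).

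Of 14 TCA cycle genes, 11 were lower, 1 was higher and 2 did not pass, with a median of -0.78. Fh1, the fumarase that acts on the product of complex II, averaged 154 ± 29.9 in HF (SD, n = 4), against 715 ± 62.2 in those labelled LF (SD, n = 3). Idh3b averaged 541 and 1527. Mdh2, malate dehydrogenase of the mitochondrion, was the higher gene at 4664 and 2663, a call that was lost with equal totals (0.26, limma adjusted p = 0.21) and after quantile normalization (0.27, 0.16).

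Among 14 nuclear regulators the test called 4 higher and 5 lower, against 2 and 9 with equal totals and 5 and 4 after quantile normalization. Over all tested genes 26.2% were called higher and 28.7% lower, and these counts are not read as a result about the list. Nrf1, the factor behind the promoter letters described above, averaged 1840 ± 153 in HF (SD, n = 4), against 1034 ± 62.6 in those labelled LF (SD, n = 3), a difference of 0.83. Gabpb1, a partner of the ETS factor GABPA, averaged 1624 and 452 (1.84), and Gabpa itself averaged 1143 and 1215 without passing (-0.62 with equal totals, past the threshold). Tfam, which packs and transcribes the mitochondrial genome, averaged 163 and 533 (-1.72). Of 9 membrane carriers and channels, 3 were higher and 4 lower, while equal totals and quantile normalization each gave 1 higher and 6 lower. Nor are these counts read as a result about the carriers. The phosphate carrier Slc25a3 was higher by 0.37 but lower after quantile normalization (-0.31), past the threshold both times, and was named after its values were seen. Slc25a4, an ADP/ATP carrier gene, ranged from 87.4 to 121 in HF, against 1026 to 1160 in those labelled LF (-3.42). Slc25a5, another ADP/ATP carrier gene with far higher counts, averaged 6467 and 8692 (-0.43). The pyruvate carrier subunit Mpc1 averaged 2439 and 588 (2.05). Ucp2 was higher by 0.19 but lower with equal totals (-0.33) and after quantile normalization (-0.78), past the threshold each time, and the first call was lost without LF6 or LF7 (limma adjusted p = 0.069 and 0.062).

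Of the 6 mitochondrially encoded subunits of complexes III to V, 4 were lower and 2 did not pass, with a median of -0.65, while 5 were lower with equal totals and 2 after quantile normalization. The catalytic subunit mt-Co1 averaged 14201 ± 2320 in HF (SD, n = 4), against 22069 ± 1565 in those labelled LF (SD, n = 3). The other lower genes averaged far less, mt-Co2 at 129 and 205, mt-Co3 at 212 and 360 and mt-Atp6 at 119 and 208. Why these rows are low was not tested. For mt-Atp6 the difference of -0.81 lost its call after quantile normalization (-0.25, limma adjusted p = 0.38) and without LF7 or LF8 (0.062 and 0.058).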

How the data were processed

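RNA sequencing of 7 libraries was analysed from 1 table. Tools named by the submitters' processing notes include DESeq2 1.20.0, STAR 2.6.1b and featureCounts 1.6.3. No genome build is stated in the sources used, and 99.96% of gene IDs are in GENCODE M21. The library columns hold normalized counts from the authors (a signal, 0 or more). In every library 100% of them were whole multiples of 1 read, within 0.01, and these recovered reads served the count tests. Per the file headers there are further columns with log2 fold changes, their errors, a test score and p-values of the authors, left aside except where the authors' deposited table is mentioned. LF columns are numbered 6 to 8 and match no LF number of the labels, so they stand for the group only. The number of library columns left unmapped was 0.

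HF and LF were compared by limma 3.58.1 (R 4.3.3, with an intensity trend) for genes averaging 10 or more normalized counts, on log2(normalized count + 1), which understates changes of low genes. Tests were two-sided, with Benjamini-Hochberg adjustment over all tested genes and a threshold of 0.05. Each library was left out in turn, and other pseudocounts (0.5 and 5), filters (none, or at least 50), scalings and priors, array weights, edgeR 4.0.16 and DESeq2 1.42.0 were tried. With the authors' size factors, edgeR's quasi-likelihood test called 3921 genes higher and 3703 lower. The p-values cover only variation between these 4 and 3 libraries. For its p-values and SEs, limma combines a gene's own spread with that of other tested genes of like intensity. Reads amplified by PCR carry no molecular identifiers, so an interval from reads covers counting error only. The fit was also run on simulated data with few changed genes, equal spread in both groups and known size factors. These settings differ from the data, so that run does not cover the wider spread in HF or the choice of scaling.

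The members, lists and named genes were chosen with earlier results of these data known. By rule, every library's value is given for the members with the highest and lowest difference of each complex, complex II, Cycs, the c-ring genes and members whose call or direction changed with scaling. From each pathway list the rule names the 2 genes of lowest p and the 1 of highest mean. Further genes, and the pairs in ratios, were picked after their values were seen. Exons of Uqcrc2, Uqcrb, Cox4i1, Cox5a, Cox6c, Atp5a1, Atp5d, Atp5j, Atp5l and Atp5o overlap an opposite-strand gene in GENCODE M21. The 7 rows named as pseudogenes of members reached at most 14.1 normalized counts, and other copies were not examined.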

Additional observations from a re-analysis of the deposited data

Results flagged for a closer look

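Within HF, Atp5j had its highest value in HF1, at 2564, against 2259 to 2274 in the other 3 libraries. This gap exceeded Dixon's 95% critical value for 4 samples. Of 38 members tested this was the only 1, and chance alone gives about 1 in 20 groups.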

How the results depend on the processing

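Equal library totals left 1 member called higher and gave medians of -0.897, -1.481, -0.555 and -1.126 for complexes II, III, IV and V. Quantile normalization gave -0.915, -0.465 and -0.966 for complexes II, IV and V. With equal totals the sign turned for Sdhd (-0.117), Cox5b (-0.407), Cox6a1 (-0.450), Cox6b1 (-0.411), Cox7a2 (-0.258), Atp5e (-0.062), Atp5j (-0.419), Atp5f1 (-0.423), Coa5 (-0.496) and Ucp2 (-0.328). After quantile normalization it turned for Sdhd (-0.036), Uqcr10 (0.045), Cox5b (-0.077), Cox6a1 (-0.314), Cox6b1 (-0.293), Atp5j (-0.263), Atp5f1 (-0.526), Coa5 (-0.415) and Ucp2 (-0.784). HF libraries hold larger normalized totals, which equal totals remove by construction; the cause of the other changes was not tested. With 1 library left out, differences ranged from -0.095 to 0.040 for Uqcr10, from -0.142 to 0.014 for Atp5j2, from -0.121 to 0.020 for Uqcrq and from -0.055 to 0.136 for Coa5, and 20 to 24 members were lower and 4 or 5 higher. Under array weights, edgeR with TMM, both pseudocounts, a mean of at least 50 and a robust prior all 38 members kept direction and side of the threshold. With no filter, and with no trend, 22 were lower and 4 higher. DESeq2 called 24 lower and 5 higher, and edgeR with the authors' size factors 23 and 4. No paired analysis was possible because the LF columns carry none of the replicate numbers that the labels give. The proteins of the c-ring genes were not compared here.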
